A study of Mus musculus with 9 samples.

Results

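The 3 libraries that carry replicate number 2, one from each sorted population, were set against the 6 libraries with the numbers 1 and 3, out of 9 in all. The groups were the Syndecan-2+ fraction of the KSL CD34- gate (lineage-negative marrow cells with c-Kit and Sca-1 on their surface and no CD34), the Syndecan-2- fraction of that gate, and the whole gate, labelled Parent, which holds cells of both fractions. Each population had 1 replicate 2 library, set against its own replicates 1 and 3. All cells came from femur and tibia marrow of 10-week-old C57BL/6J mice after lineage depletion, with 10000 cells sorted per replicate and no treatment or engineered allele named in the labels. The protocol gives male mice and the series description mixed gender, and nothing says that the replicates were separate animals, and each p-value therefore speaks of the spread among these libraries alone, technical spread included. The labels give no date, operator or sequencing batch for the numbers. Replicate 2 was singled out from these expression values, so its difference from the others is a description here and no test is attached to it. The tests given are those of contrasts that the choice did not use, namely replicate 3 against replicate 1, the interaction of replicate 2 with the population, and Syndecan-2+ against Syndecan-2-.

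Cells answer damaged or unfolded protein with the heat shock response, in which the transcription factor HSF1 binds heat shock elements, inverted repeats of the bases GAA, and switches on chaperone genes. Hsp70 proteins hold unfolded chains, Hsp40 proteins (the Dnaj genes) deliver clients to them, Hsp110 proteins act as their nucleotide exchange factors, and Hsp90 and the small heat shock proteins complete the system. Immediate-early genes such as Fos, Jun and Egr1 are a separate fast response to growth factors and to tissue dissociation, and both sets are known to be switched on when cells are isolated from tissue.

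Values are CPM, a count scaled to library size and summed per gene symbol, and log2 differences are on the scale of CPM + 1 with the population as a block. A CPM stood for 17.0 to 20.6 reads in the replicate 2 libraries and 15.5 to 19.0 reads in the others, if the most common low value is 1 read, and 3 reads equal 0.146 to 0.176 CPM in replicate 2 and 0.158 to 0.194 CPM elsewhere. The number of genes at 1 CPM or more was 13128 to 13504 in replicate 2 and 12988 to 13612 in the others. The share of listed CPM in transcripts annotated as retained introns was 4.69 to 5.0% against 4.38 to 5.05%, and that of mitochondrial genes 5.28 to 6.18% against 4.94 to 6.54%, so that on both measures the replicate 2 libraries lay within the range of the rest. The gate markers were present in every library. Kit, the stem cell factor receptor, stood at 158 to 240 CPM in replicate 2 and 155 to 273 CPM in the others, and Ly6a, which encodes Sca-1, at 5.01 to 6.74 and 4.47 to 8.54 CPM. The Y-linked gene Ddx3y was present in all libraries at 26.3 to 27.8 CPM in replicate 2 and 25.6 to 31.7 CPM in the others. In bulk RNA of this kind, fewer cells of a type and less RNA per cell cannot be told apart.

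Of 13997 genes tested, 134 (0.957%) had an adjusted p under 0.05 in the contrast that defines the replicate 2 group. Of these, 74 (0.529%) were higher and 60 (0.429%) lower in replicate 2, and these shares serve as the background for the counts below. The higher genes moved further. A difference of 2-fold or more in CPM + 1 was reached by 22 of the 74 higher genes and 3 of the 60 lower genes, while the median of all genes was -0.05 on the log2 scale. TMM rescaling gave 96 higher and 33 lower genes and quantile normalization 91 and 40, so that the number of lower genes depends on the scaling. With replicates 1 and 3 as separate levels 103 were higher and 132 lower, and at a minimum of 10 CPM 60 and 70, so that the lower genes then outnumbered the higher ones. The count also depends on single libraries: 59 genes were called without the Syndecan-2- library of replicate 2, and 78 each without that of Syndecan-2+ or Parent. In 131 of the 134 the replicate 2 value lay outside both other values of the same population in all 3 populations, against 1990 of all genes tested (14.2%), and the 134 were chosen on these values. The values of the 3 replicate 2 libraries did not overlap those of the other 6 in 58 of the 74 higher genes and 25 of the 60 lower genes, against 433 of all genes tested (3.09%). The filter of 1 CPM in 3 libraries was passed through the 3 replicate 2 libraries alone by 9 genes, of which Hmox1, Gdf15 and Gm6297 are among the 134. At the edge of that filter, the library that decides the filter stood at 1.00 CPM for Gm15879, just inside, and at 0.999736 CPM for RP23-394K8.5, just outside.

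The chaperones of the heat shock response were higher in replicate 2, in all 3 populations. Of 38 listed heat shock chaperones and partners 37 were tested, and 14 were called higher and 0 lower. Added up over the list, replicate 2 had 11288 CPM in Syndecan-2+, 13582 CPM in Syndecan-2- and 10840.1 CPM in Parent, against 4272 to 5774 in the other 6 libraries. This is 2.04 to 2.64% of all listed CPM in replicate 2 and 0.790 to 1.07% in the others. The 14 genes had log2 differences of 0.35 to 4.75 with a median of 1.58, and none of them had overlapping values between the groups. Over the 37 genes tested the median was 0.18, and 23 members were not called.

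The largest difference was that of the stress-inducible Hsp70 genes. Hspa1a (ENSMUSG00000091971, GRCm38 chromosome 17, 34969190 to 34972156, minus strand), which has a single exon, stood at 1843 CPM in Syndecan-2+, 2641 CPM in Syndecan-2- and 1800.03 CPM in Parent of replicate 2. The other libraries had 115, 179 and 365 CPM in Syndecan-2+, Syndecan-2- and Parent of replicate 1 and 21.5, 31.9 and 35.0 CPM in those of replicate 3. Every replicate 2 library was thus above every other library, and the replicate 1 libraries were above those of replicate 3. The log2 difference was 4.75 (SE 0.58). Hspa1b, its neighbour on chromosome 17, differed by 4.52 (SE 0.54). The pair is near-identical in sequence, so that reads can be split between them, and their sum was 4396, 5871 and 3976 CPM in Syndecan-2+, Syndecan-2- and Parent of replicate 2, against a lowest of 66.1, a median of 188 and a highest of 833 CPM in the others, 16.0-fold by the means. Hspa1l, another member of this gene cluster that is best known from testis, was not called and stood at 1.09 to 1.94 CPM in replicate 2 against 0.180 to 1.13 CPM.

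**Figure D1:**
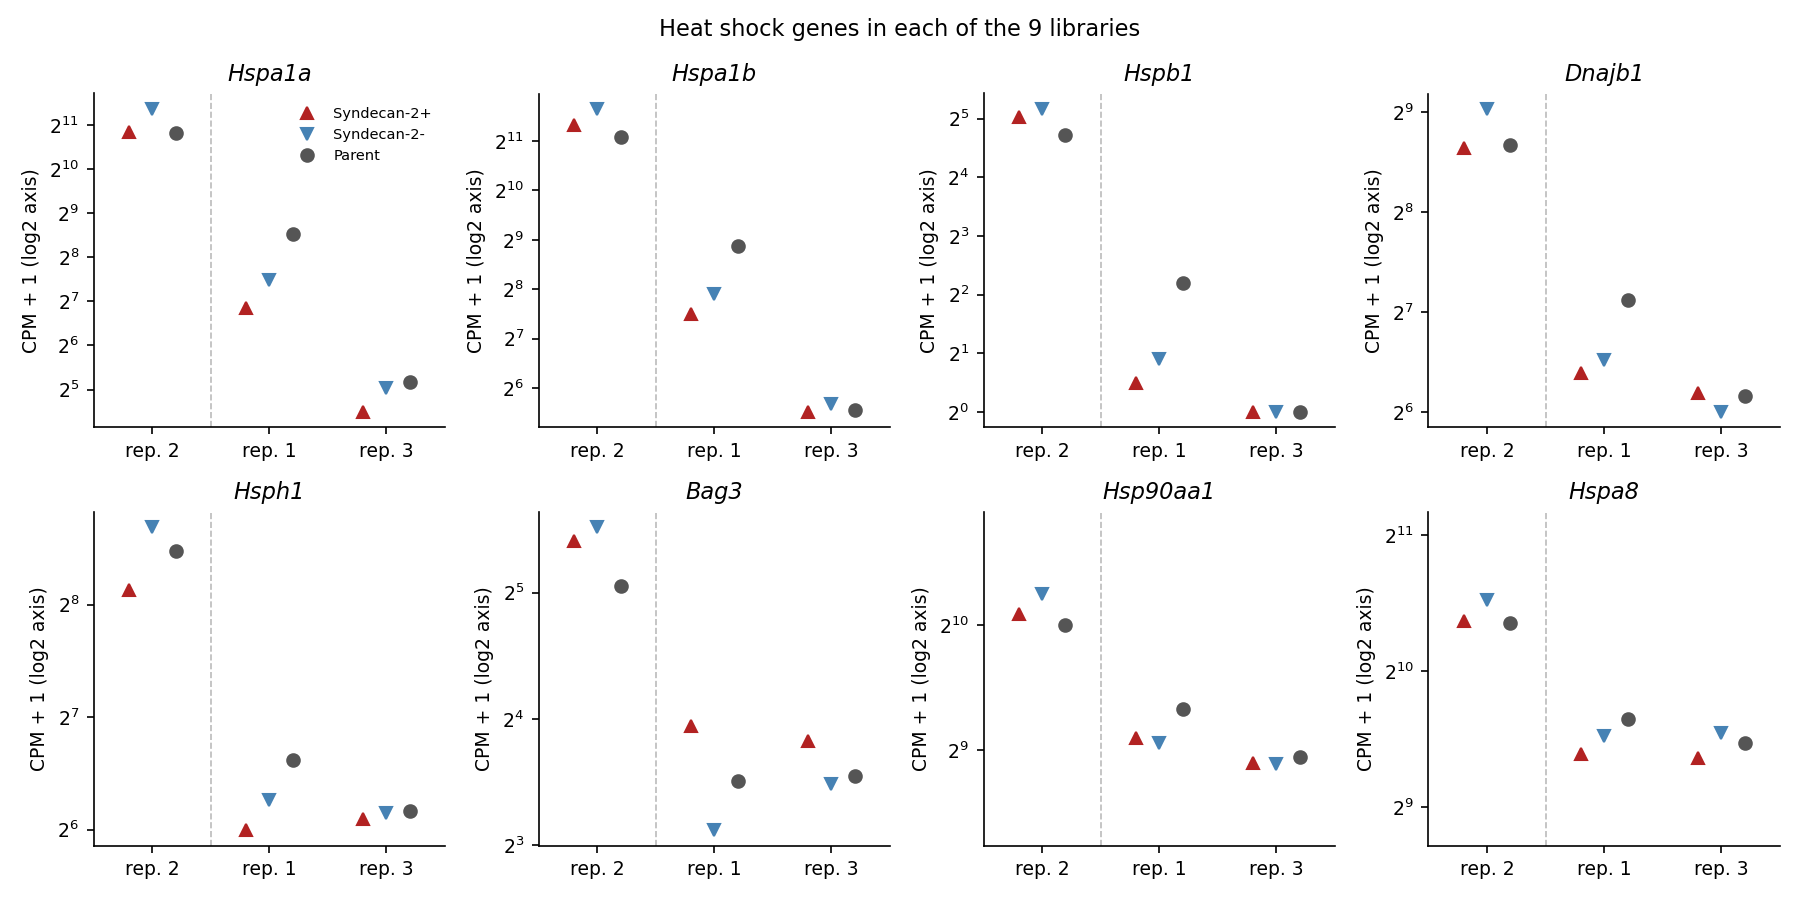
CPM + 1 on a log2 axis for 8 heat shock genes, with 1 point per library, replicate 2 left of the dashed line and replicates 1 and 3 right of it, and the populations by colour and shape. For Hspa1a the 3 replicate 2 libraries sit at 1800.03 to 2641 CPM, replicate 1 at 115 to 365 CPM and replicate 3 at 21.5 to 35.0 CPM.

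Hspb1, the small heat shock protein Hsp25 of the mouse (ENSMUSG00000004951, chromosome 5), was close to absent outside replicate 2. It stood at 31.6, 35.0 and 25.4 CPM in Syndecan-2+, Syndecan-2- and Parent of replicate 2. In replicate 1 it stood at 0.404, 0.877 and 3.58 CPM in the same order, and in replicate 3 it was listed at 0 in all 3 libraries. The log2 difference was 4.38 (SE 0.34), and 2.64 with a pseudocount of 5. Its pseudogene Hsp25-ps1 shares reads with it, and the sum of both was 78.4, 87.3 and 61.0 CPM in replicate 2 and 0.210 to 10.5 CPM in the others.

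Hsp40, Hsp110 and other partners of Hsp70 were higher by smaller factors. Dnajb1, the main heat-inducible Hsp40, stood at 398, 524 and 408 CPM in Syndecan-2+, Syndecan-2- and Parent of replicate 2, against 62.9, 77.2 and 138 CPM (lowest, median and highest) in the others, a log2 difference of 2.39 (SE 0.16). Hsph1, the Hsp110 exchange factor, had 279, 411 and 356 CPM against 62.7, 70.2 and 97.5 CPM, a difference of 2.22 (SE 0.09). Bag3, which links Hsp70 to autophagy and is another exchange factor, had 41.6, 44.8 and 32.2 CPM against 7.68, 10.6 and 14.4 CPM, a difference of 1.76 (SE 0.12). Among the remaining Hsp40 genes Dnaja4 differed by 2.12 (SE 0.15), Dnaja1 by 1.41 (SE 0.07) and Dnajb4 by 1.17 (SE 0.10), while Dnaja2, Dnajb2, Dnajb5, Dnajb6, Dnajb9 and Dnajc7 were not called, with values between -0.18 and 0.22.

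Chaperones that are abundant in unstressed cells were also higher, by about 2-fold or less. Hspa8, the constitutive Hsp70, stood at 1317, 1472 and 1304 CPM in Syndecan-2+, Syndecan-2- and Parent of replicate 2, against 656, 722 and 803 CPM in the others, a difference of 0.92 (SE 0.06). Hsp90aa1, the inducible Hsp90, had 1085, 1213 and 1021 CPM against 475, 513 and 641 CPM, a difference of 1.07 (SE 0.08), and its constitutive counterpart Hsp90ab1 differed by 0.35 (SE 0.06). The mitochondrial chaperonin pair Hspe1 and Hspd1 differed by 0.94 (SE 0.10) and 0.39 (SE 0.06). The groups did not overlap for any of these 5 genes.

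Other parts of the folding machinery, among them uncalled members of the heat shock list, stood close to their level elsewhere. Of the 8 subunits of the cytosolic chaperonin TRiC none was called, and their differences lay between -0.09 and 0.02. The Hsp90 cochaperones Stip1, Cdc37, Ahsa1, Ptges3, Fkbp4 and Chordc1, all of them on the heat shock list, were not called either. Their differences were -0.17 to 0.18, although the groups did not overlap for Fkbp4 (0.18) and Ptges3 (-0.17). Hsf1, the regulator itself, stood at 18.1 to 20.0 CPM in replicate 2 and 16.5 to 20.6 CPM in the others, and Hsf2 at 6.50 to 7.70 and 5.99 to 8.20 CPM. A p above the threshold does not show that these levels were the same.

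Some of the largest rises lay outside the list. Zfand2a, an arsenite- and heat-inducible protein of the proteasome, had 16.2, 23.4 and 23.3 CPM in Syndecan-2+, Syndecan-2- and Parent of replicate 2, against 5.60, 7.24 and 10.1 CPM, a difference of 1.37 (SE 0.13). Hmox1, the heme oxygenase, had 2.52, 4.27 and 3.53 CPM against 0.0529, 0.475 and 0.904 CPM. It passed the filter of 1 CPM through the replicate 2 libraries alone and so had to differ, and the other 26 of 27 antioxidant genes tested were not called. Phlda1, a gene with a pleckstrin homology-like domain, differed by 1.33 (SE 0.15), at 10.3 to 19.5 CPM in replicate 2 against 3.99 to 6.26 CPM. Of 31 proteasome subunits none was called.

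Genes with a single exon were counted from the gene models. Among the protein-coding genes 8 of the 50 higher in replicate 2 (16%) have a single exon in the GENCODE annotation, against 2 of the 46 lower (4.35%) and 344 of 11463 tested (3.00%). The 8 are Hspa1a, Hspa1b, Jun, Jund, Rhob, Fam43a, Gm10382 and Gm8797. Of all 74 higher genes, 50 are protein coding, 8 are processed pseudogenes, 5 are lincRNAs and 4 are antisense genes. Values of processed pseudogenes are uncertain, since they copy spliced mRNAs, and so are those of antisense genes, because no source used here states how strand was treated in counting.

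The promoters of Hspa1a, Hspb1, Dnajb1 and Hsph1, which with Hspa1b have the largest differences of the heat shock list, are shown because heat shock elements are defined by sequence. The 250 bases before the start of each gene were read from RefSeq (GRCm38.p6), written 5' to 3' on the gene's strand, with matches to GAANNTTC or TTCNNGAA in capitals. The windows lie at chr17:34972157-34972406 (minus strand) for Hspa1a, chr5:135887669-135887918 (plus strand) for Hspb1, chr8:83607925-83608174 (plus strand) for the first of 2 windows of Dnajb1 and chr5:149636337-149636586 (minus strand) for Hsph1.
Hspa1a: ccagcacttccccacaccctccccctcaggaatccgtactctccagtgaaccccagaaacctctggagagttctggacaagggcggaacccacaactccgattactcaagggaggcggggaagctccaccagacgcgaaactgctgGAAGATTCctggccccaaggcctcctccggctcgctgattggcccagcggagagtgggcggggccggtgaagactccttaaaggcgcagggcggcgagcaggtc
Hspb1: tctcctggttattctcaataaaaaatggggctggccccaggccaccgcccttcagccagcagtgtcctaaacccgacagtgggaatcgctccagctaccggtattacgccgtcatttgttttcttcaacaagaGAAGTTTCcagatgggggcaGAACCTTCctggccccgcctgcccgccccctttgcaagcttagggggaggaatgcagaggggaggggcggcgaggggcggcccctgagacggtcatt
Dnajb1: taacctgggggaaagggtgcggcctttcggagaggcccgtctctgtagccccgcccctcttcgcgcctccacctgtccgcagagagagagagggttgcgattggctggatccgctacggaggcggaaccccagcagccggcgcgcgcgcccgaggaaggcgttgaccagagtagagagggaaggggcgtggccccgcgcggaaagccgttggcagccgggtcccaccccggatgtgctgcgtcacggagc
Hsph1: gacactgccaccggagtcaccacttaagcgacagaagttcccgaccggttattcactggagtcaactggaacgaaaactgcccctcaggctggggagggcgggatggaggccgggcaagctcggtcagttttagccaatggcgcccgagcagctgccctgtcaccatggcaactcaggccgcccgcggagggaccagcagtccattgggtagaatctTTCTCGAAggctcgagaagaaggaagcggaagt
The window of Hspa1b is identical to that of Hspa1a at 247 of 250 bases (98.8%). Hspa1a holds 1 match, Hspb1 holds 2 and Hsph1 holds 1, whereas both windows of Dnajb1 hold none. The second Dnajb1 window, at chr8:83608298-83608547, lies downstream of the first and so inside the gene as read from its first start.

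Both motifs read the same on either strand, and a match is a description of letters, not a binding site. Of the 14 called heat shock genes 11 had an entry in the promoter table, with 18 windows, since a gene can have several starts. GAANNTTC was found in 7 of these 18 windows and TTCNNGAA in 5, against 3 and 3 of the 25 windows of 20 heat shock list genes that were tested and not called. Over all 32851 windows the shares were 6.69% and 7.17%. The windows of 41 genes higher in replicate 2 held GAANNTTC in 10 of 54 and TTCNNGAA in 9. These 54 include the 18 windows of the heat shock genes, which hold 7 of the 10 and 5 of the 9. The windows of 37 genes lower in replicate 2 held the motifs in 2 and 4 of 53. A form of 3 repeat units, either motif joined to the next GAA or TTC after another gap of 2 bases, overlaps the shorter motifs and occurred in 2 of the 18 windows, 2 of the 25 and 0.466% of all.

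The rise of Hsph1 was spread over coding transcripts and transcripts annotated as retaining an intron. Summed over 3 of the retained-intron kind, they stood at 159, 257 and 217 CPM in Syndecan-2+, Syndecan-2- and Parent of replicate 2. In replicate 1 they stood at 23.1, 31.2 and 51.9 CPM, and in replicate 3 at 11.3, 10.1 and 10.4 CPM. The replicates were thus ordered 2, 1, 3 in each population. The 4 protein-coding transcripts of the gene stood at 115, 150 and 134 CPM in replicate 2 against 39.3 to 60.1 CPM, with replicate 3 above replicate 1 in each population. By the means, the retained-intron class was 9.18-fold and the coding class 2.63-fold higher in replicate 2. The coding value is lowered by 1 transcript with the opposite difference, Hsph1-002, at 12.4, 7.99 and 1.37 CPM in Syndecan-2+, Syndecan-2- and Parent of replicate 2 against 11.7 to 38.8 CPM in the others. Without it the other 3 coding transcripts were 5.07-fold higher, at 103, 142 and 133 CPM in replicate 2 against 20.9 to 32.7 CPM, and replicate 3 was above replicate 1 in Syndecan-2+ alone. Among these 3, Hsph1-006 averaged 42.2 CPM in replicate 2 and 3.65 CPM in the others. The split between transcripts that share exons was estimated by the authors' counting, and its error is not known.

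**Figure D2:**
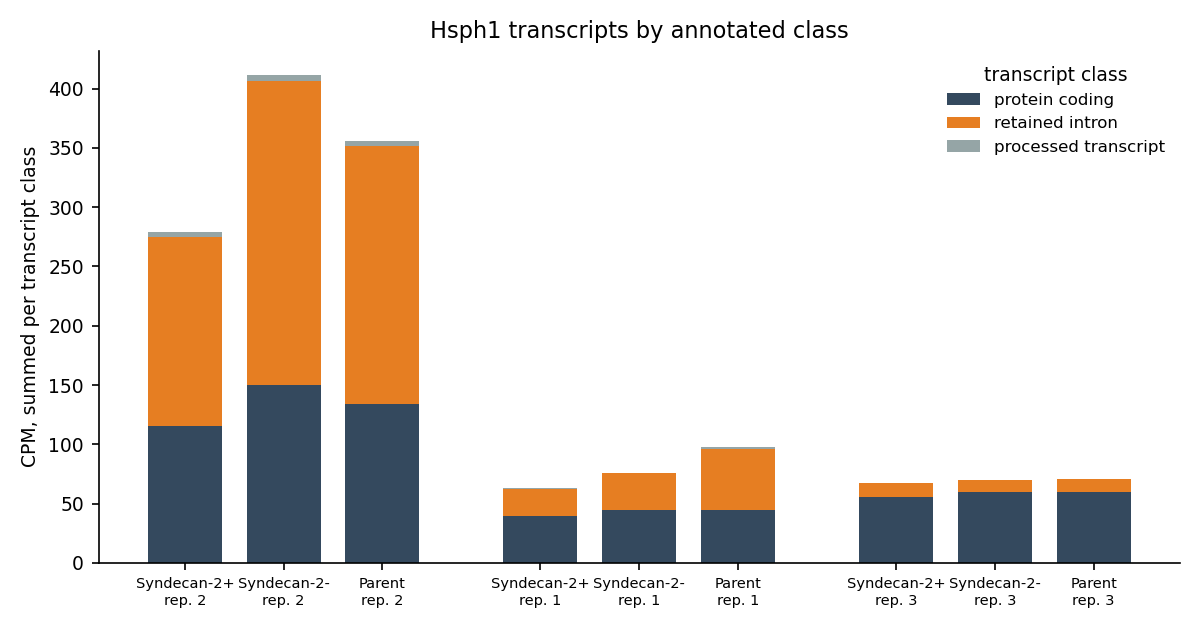
CPM of Hsph1 in each library, stacked by annotated transcript class, with replicate 2 on the left. The retained-intron class reaches 159 to 257 CPM in replicate 2, 23.1 to 51.9 CPM in replicate 1 and 10.1 to 11.3 CPM in replicate 3.

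For Dnaja1 the noncoding class differed more than the coding class by the means. Its 4 transcripts annotated as processed, without a coding frame, stood at 106, 127 and 118 CPM in Syndecan-2+, Syndecan-2- and Parent of replicate 2 and at 26.8 to 44.0 CPM in the others, 3.53-fold by the means, while its 5 coding transcripts stood at 35.4, 66.4 and 52.6 CPM against 23.9 to 35.9 CPM, 1.75-fold. Over the whole library the retained-intron share did not separate replicate 2 from the rest, as given above.

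The 6 libraries set against replicate 2 were not alike in these genes. Replicate 3 against replicate 1 is a contrast that the choice of replicate 2 did not use, and 92 genes (0.657%) passed the threshold there, 54 higher (0.386%) and 38 lower (0.271%) in replicate 3, with 75 and 27 under TMM rescaling. Of the 37 heat shock genes tested 5 were lower in replicate 3 and 0 higher. Hspa1a differed by -2.72 (SE 0.18, limma adjusted p = 3.43e-08) and Hspa1b by -2.51 (SE 0.18, adjusted p = 8.20e-08), lower in replicate 3 in 3 of 3 populations. Libraries that share a number deviate together, so the populations are not independent repeats of a replicate difference. The p-values of this contrast, here and below, measure how evenly a difference appears over the populations, not the spread between separate preparations. Hspe1 differed by -0.40 (SE 0.07, limma adjusted p = 0.00705), Dnajb1 by -0.56 (SE 0.12, adjusted p = 0.0251) and Hspb1 by -1.20 (SE 0.27, adjusted p = 0.0430).

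The Hsp70 calls held under the alternatives run, with adjusted p of at most 8.45e-06 for Hspa1a and 1.54e-05 for Hspa1b in limma. Dnajb1 and Hspb1 were near the threshold. Without the Parent library of replicate 1 Dnajb1 gave -0.32 (limma adjusted p = 0.206, range over the alternatives 0.00399 to 0.249) and Hspb1 -0.64 (adjusted p = 0.285, range 0.000252 to 0.285). The count of lower heat shock genes was 2 without the Parent library of replicate 1 or of replicate 3 and 3 without the Syndecan-2- library of replicate 3, and the count over all genes was 40, 48 and 55 in these fits. It was 52 and 55 without the Syndecan-2+ library of replicate 3 and of replicate 1. Within the populations, Hspa1a and Hspa1b together stood 14.9, 14.0 and 4.77 times as high in replicate 2 as in replicate 1 of Syndecan-2+, Syndecan-2- and Parent, and 66.5, 71.3 and 49.1 times as high as in replicate 3. Of the 14 called heat shock genes 9 had the order 2, 1, 3 from high to low in all 3 populations, among them Hsp90aa1, Dnaja4, Dnajb4 and Hspd1. In the other 5, namely Hspa8, Hsph1, Hsp90ab1, Dnaja1 and Bag3, the order of replicates 1 and 3 varied between the populations. Replicate 2 was the highest of each population in all 14. Taken apart, replicate 2 against replicate 1 called 166 genes (1.19%), 80 higher (0.572%) and 86 lower (0.614%), and replicate 2 against replicate 3 called 254 (1.81%), 110 higher (0.786%) and 144 lower (1.03%). The 2 contrasts share the replicate 2 libraries, and Hspa1a differed by 3.39 in the one and 6.11 in the other.

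**Figure D3:**
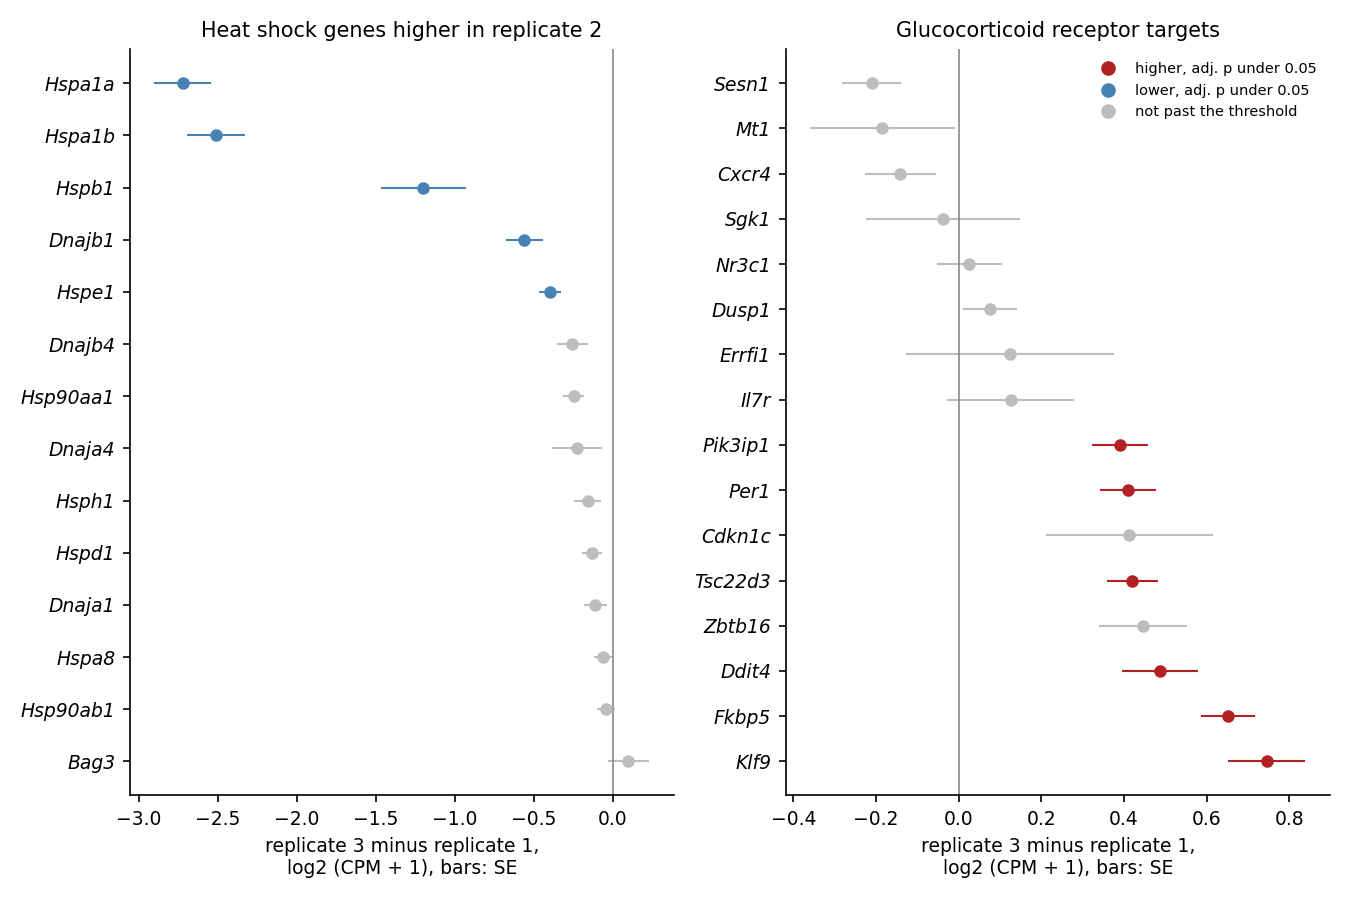
Log2 difference of replicate 3 from replicate 1 with its SE, for the 14 heat shock genes higher in replicate 2 (left) and for 16 glucocorticoid receptor targets (right), coloured by the limma call. On the left 5 genes are lower in replicate 3 and on the right 6 genes are higher.

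Glucocorticoid receptor targets also set replicate 3 apart from replicate 1. Of 16 glucocorticoid receptor targets tested, 6 were higher in replicate 3 than in replicate 1 and 0 lower, against a background of 0.386% higher. This list, like the others, was chosen with earlier results of these data known, so the count is a description. Fkbp5, a cochaperone of the glucocorticoid receptor and one of its strongest targets, stood at 69.7, 77.2 and 84.8 CPM in Syndecan-2+, Syndecan-2- and Parent of replicate 3 and at 46.0, 52.8 and 47.3 CPM in those of replicate 1, with replicate 2 between them at 58.1, 62.5 and 67.7 CPM. Its replicate 3 difference was 0.65 (SE 0.07, limma adjusted p = 9.15e-06). Klf9, a zinc-finger factor, differed by 0.75 (SE 0.09, adjusted p = 0.000149) and Tsc22d3, which encodes the glucocorticoid-induced leucine zipper, by 0.42 (SE 0.06, adjusted p = 0.000848). Pik3ip1, Per1 and Ddit4 differed by 0.39, 0.41 and 0.49, and the last of these lost its call when any one of 4 libraries was left out, the highest limma adjusted p being 0.108. Of 43 immediate-early genes 5 were higher in replicate 3, Per1 among them, with Egr1 at 0.28 (SE 0.05, limma adjusted p = 0.0152). Egr1 lost its call without a filter and when any one of 5 libraries was left out, with a limma adjusted p of up to 0.137, and Per1 without the Syndecan-2- library of replicate 3 (adjusted p = 0.0641). In the contrast of replicate 2 with the other numbers 1 glucocorticoid receptor target, Dusp1, was called. It lost this call without the Syndecan-2- or the Syndecan-2+ library of replicate 2. The median of the glucocorticoid list was -0.02 in that contrast, which averages over replicates 1 and 3. Taken apart, 3 of its members were higher in replicate 2 than in replicate 1, while 3 were lower and 1 higher than in replicate 3.

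Immediate-early genes were split by replicate 2 in both directions. Of 43 tested, 10 were called higher and 8 lower, against backgrounds of 0.529% and 0.429%, and the median was -0.01. The higher ones included Jun, the AP-1 subunit, at 2053, 1787 and 1685 CPM in Syndecan-2+, Syndecan-2- and Parent of replicate 2 against 1035, 1143 and 1256 CPM in the others, a difference of 0.68 (SE 0.06). The groups did not overlap for Jun, but quantile normalization gave 0.11. Rhob, a short-lived endosomal GTPase, had 295, 321 and 270 CPM against 130, 161 and 170 CPM, a difference of 0.91 (SE 0.06). Atf3, a stress-induced factor of the ATF family, had 56.4, 42.7 and 47.5 CPM against 21.2, 26.3 and 30.0 CPM, a difference of 0.89 (SE 0.11). Klf2 differed by 0.78 (SE 0.07) and Gadd45g by 0.93 (SE 0.15), and Fosb, Jund, Dusp1 and Klf6 by 0.285 to 0.34. Cyr61 stood near the floor, at 0.882 to 2.91 CPM in replicate 2 and 0.106 to 1.30 CPM in the others.

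**Figure D4:**
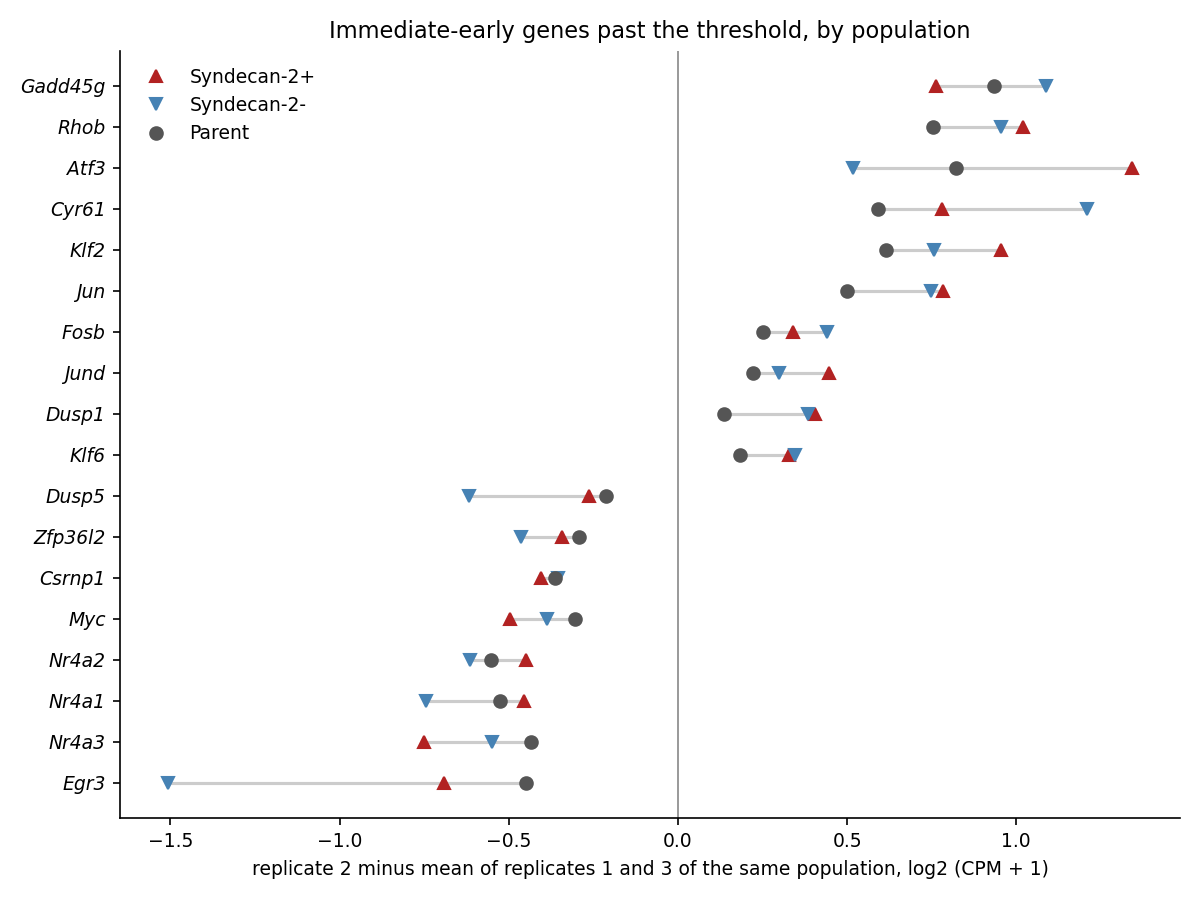
Log2 difference of replicate 2 from the mean of replicates 1 and 3 of the same population, for the 18 immediate-early genes past the threshold. Points of the 3 populations lie on the same side of 0 for each gene, with Egr3 at -1.51 in Syndecan-2- the lowest and Atf3 at 1.34 in Syndecan-2+ the highest.

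The lower ones were led by Egr3 and the orphan nuclear receptors of the Nr4a family, all of them rapid response genes of receptor signalling. Nr4a1 stood at 337, 206 and 276 CPM in Syndecan-2+, Syndecan-2- and Parent of replicate 2 against 331, 391 and 510 CPM in the others, a difference of -0.57 (SE 0.07). Its ranges overlapped across populations, but within each population replicate 2 was the lowest of the 3 libraries. Nr4a3 had 10.8, 11.8 and 15.0 CPM against 15.8, 19.5 and 21.5 CPM, a difference of -0.58 (SE 0.09), and Nr4a2 differed by -0.54 (SE 0.10). Egr3 had 16.8, 5.74 and 16.0 CPM against 15.9, 23.3 and 29.3 CPM, a difference of -0.88 (SE 0.15). Without the Syndecan-2- library of replicate 2 it was -0.57. Myc, the growth regulator, differed by -0.40 (SE 0.08), and Csrnp1, Zfp36l2 and Dusp5 by -0.36 to -0.37. Fos, Junb, Ier2 and Egr1 were among the members of the list that were not called, with differences of 0.08, 0.00, -0.01 and -0.11. Fos stood at 752 to 895 CPM in replicate 2 and 683 to 807 CPM in the others. Replicates 1 and 3 were not alike in the lower genes, since 6 of the 8 had the order 3, 1, 2 from high to low in all 3 populations. Taken apart, 7 members of the list were lower and 11 higher in replicate 2 than in replicate 1. Against replicate 3, 15 were lower and 10 higher.

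The counts of this list depended on single libraries. Without the Syndecan-2- library of replicate 2, 4 immediate-early genes were higher and 2 lower, and without the Syndecan-2+ library 6 and 3, whereas at least 12 heat shock genes were higher with any 1 library left out. Without the Parent library of replicate 2, 5 immediate-early genes were lower. TMM rescaling gave 13 higher and 5 lower immediate-early genes.

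The largest fall was that of the immunoglobulin segment Igkv14-100, which is taken up with the interaction test, and the next was that of a small RNA. Snora81, a guide RNA of ribosomal RNA pseudouridylation, stood at 0.00109, 1.20 and 6e-09 CPM in Syndecan-2+, Syndecan-2- and Parent of replicate 2, so that it was under 3 reads in 2 of the libraries, against 2.20, 3.60 and 6.69 CPM in the others. Its log2 difference was -1.87 (SE 0.25). Snora23, Snora74a and Snora73a differed by -0.82, -0.74 and -0.67, at 4.33 to 7.21 CPM in replicate 2 against 5.82 to 14.2 CPM. Of 130 snoRNA genes tested 5 were lower and 2 higher, and the share of listed CPM in snoRNAs was 0.2996 to 0.325% in replicate 2 and 0.269 to 0.313% in the others. Rny3, a Y RNA, differed by -0.57 (SE 0.12). Counting of such short RNAs depends on fragment size selection, which is not described in the labels, and the fall of Rny3 and Snora73a did not pass the threshold under TMM rescaling. Rny3 and Snora73a also lost the call when any one of 6 libraries was left out. Snora74a lost it without any one of the 3 replicate 2 libraries, and Snora23 without either of 2 of them.

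Among protein-coding genes the largest falls were Timm8a1, Plaur and Egr3. Timm8a1, a mitochondrial import factor, had 0.443, 0.653 and 0.509 CPM in Syndecan-2+, Syndecan-2- and Parent of replicate 2 against 1.30, 2.11 and 4.07 CPM, a difference of -1.02 (SE 0.20). Plaur, the urokinase receptor, had 4.71, 3.81 and 8.76 CPM against 8.95, 11.0 and 14.8 CPM, a difference of -0.94 (SE 0.16). Lmna, the lamin A gene, and Skil, an inhibitor of SMAD signalling, both differed by -0.57. Pim1, a kinase downstream of cytokine receptors, differed by -0.46 (SE 0.06), and Vegfa by -0.44 (SE 0.09) as the only called gene of 31 hypoxia and glycolysis genes. Timm8a1, Plaur, Lmna and Vegfa each lost the call without either of 2 of the replicate 2 libraries.

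Other stress programmes held few called genes. Of 22 endoplasmic reticulum chaperones and unfolded protein response genes 1 was called, Hspa5, the Hsp70 of that compartment. It stood at 556, 471 and 474 CPM in Syndecan-2+, Syndecan-2- and Parent of replicate 2 against 312, 337 and 352 CPM in the others, a difference of 0.58 (SE 0.05). Of 25 genes of the integrated stress response 1 was higher, the phosphatase subunit Ppp1r15a at 0.51 (SE 0.07). Of 23 NF-kappaB targets 1 was lower, the activation marker Cd69 at -0.25 (SE 0.06), which missed the threshold without a filter, under TMM rescaling and quantile normalization, and when any one of 6 libraries was left out. None of 21 p53 targets, 39 interferon-induced genes, 24 cholesterol synthesis genes, 34 ribosome biogenesis genes or 15 mitochondrially encoded genes was called. The cold-inducible RNA-binding protein genes Cirbp and Rbm3 were not called and differed by -0.25 and -0.02.

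**Figure D5:**
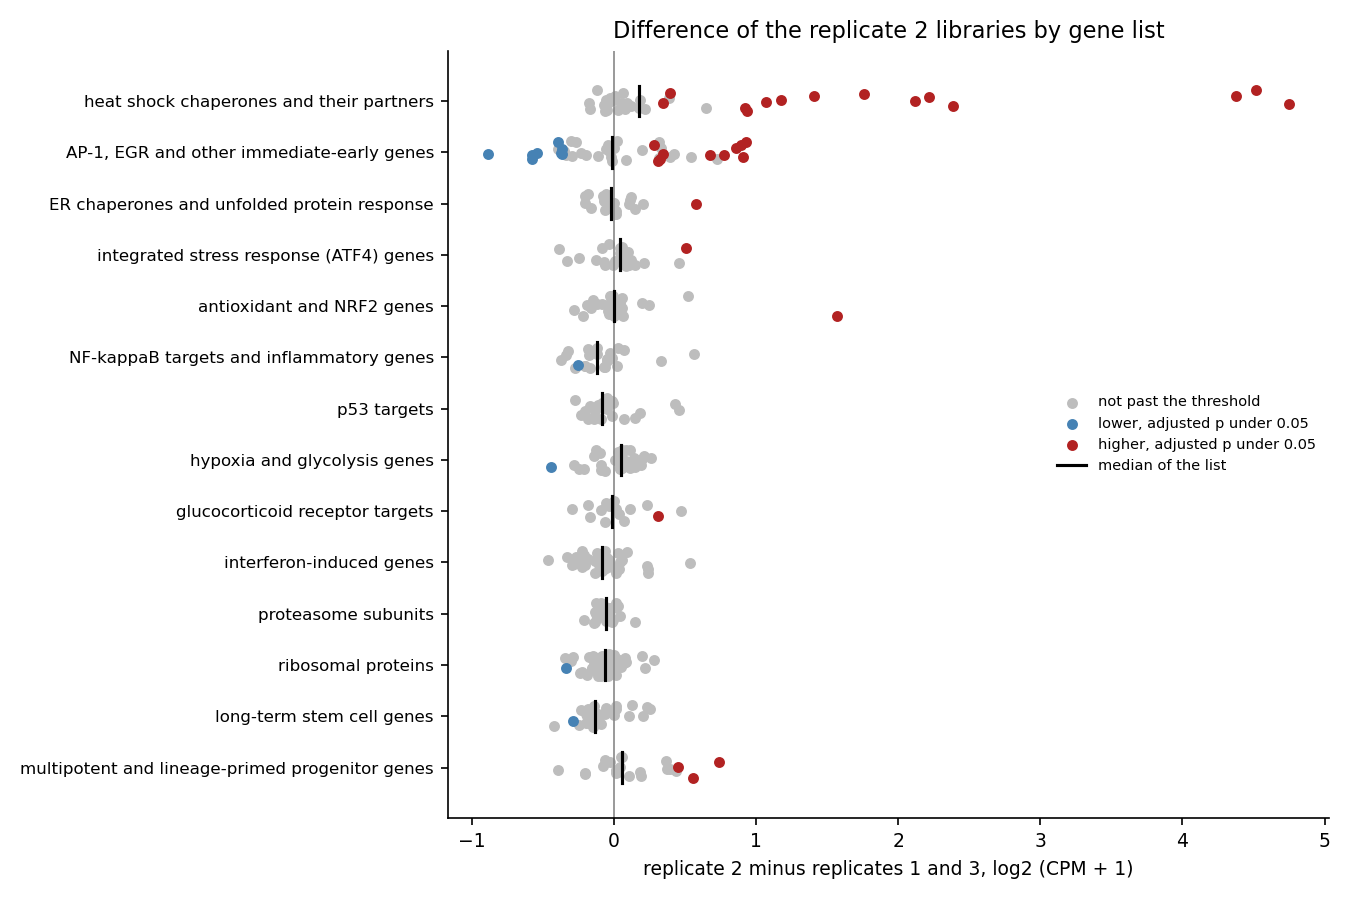
Log2 difference of replicate 2 from replicates 1 and 3 for each tested gene of 14 lists, with genes past the threshold in colour and the list median as a bar. The heat shock list reaches 4.75 with a median of 0.18, the immediate-early list has 10 genes on the right and 8 on the left, and the remaining 12 lists hold 0 to 3 coloured genes each.

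Most lists of cell identity and cycle genes held no called gene, and the progenitor list held 3. Calls leave out smaller shifts. The difference was above 0 in 7 of 33 long-term stem cell genes (median -0.13) and 1 of 18 megakaryocyte genes (median -0.17). It was above 0 in 16 of 22 progenitor genes (median 0.05). Within each population replicate 2 had the lowest summed CPM of the first 2 lists and the highest of the progenitor list. A shift of whole lists was not tested. Of 33 long-term stem cell genes 1 was called, Hlf, a transcription factor of stem cells, at -0.29 (SE 0.06), which missed the threshold under TMM rescaling and when any one of 6 libraries was left out. None of 43 DNA replication genes or 32 mitosis genes was called, nor was any of 5 neutrophil and monocyte, 11 erythroid, 18 megakaryocyte, 13 B cell, 6 T and NK cell, 11 macrophage and dendritic cell or 9 stromal markers tested. Of 22 progenitor genes 3 were higher, all of them granule proteins of early myeloid cells. Elane had 55.6, 28.6 and 36.3 CPM in Syndecan-2+, Syndecan-2- and Parent of replicate 2 against 20.0, 22.5 and 25.4 CPM, a difference of 0.74 (SE 0.10), Mpo differed by 0.56 (SE 0.09) and Prtn3 by 0.45 (SE 0.09). Without the Syndecan-2+ library of replicate 2, Mpo gave 0.34 and Prtn3 0.26, and Prtn3 was no longer called. The summed CPM of the neutrophil and monocyte markers, of which 9 of 18 are used here and S100a9, Camp, Ltf and Ly6g are not, was 70.7 to 92.9 in replicate 2 and 57.9 to 93.1 in the others. Within Syndecan-2+ it was 70.7 in replicate 2 against 57.9 and 63.1 in replicates 1 and 3, and within Parent 89.7 against 79.3 and 84.1. Within Syndecan-2- it was 92.9 against 91.1 and 93.1. Ly6c2, a monocyte marker, differed by 0.59 and was called only without the Syndecan-2- library of replicate 2, at 0.92. The part of such cells in the 3 genes was not tested.

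The replicate 2 difference was tested for a dependence on the population. Of all genes 3 (0.0214%) passed the interaction F-test, all of them immunoglobulin segments, and none was a heat shock or immediate-early gene. Igkv14-100 was listed at 0 in all 3 libraries of replicate 2, while replicates 1 and 3 had 9.07 and 11.0 CPM in Syndecan-2+, 8.26 and 8.10 CPM in Parent and were listed at 0 in Syndecan-2- (limma adjusted p = 0.0101). The smallest adjusted p among the 14 heat shock genes was 0.999 in limma, and that among the 18 called immediate-early genes was the same, while 392 of all genes had an unadjusted p under 0.05. This fit takes its spread from replicates 1 and 3 of each population, which themselves differed in heat shock genes. A fit with replicates 1 and 3 as separate levels, added after seeing the data, called 14 genes (0.1%), and the smallest limma adjusted p was 0.141 among the 14 heat shock genes, for Hspa1a, and 0.122 among the 18 immediate-early genes, for Egr3. Mpo was among the genes called there (limma adjusted p = 0.0130), with 476 CPM in Syndecan-2+, 835 CPM in Syndecan-2- and 707 CPM in Parent of replicate 2, against 243 and 233, 668 and 656, and 565 and 547 CPM in replicates 1 and 3 of the same populations. The difference of Hspa1a was 5.17 in Syndecan-2+, 5.10 in Syndecan-2- and 3.97 in Parent, and that of Dnajb1 2.35, 2.78 and 2.04. A p that misses the threshold does not show that the populations responded alike. With 1 replicate 2 library in each population, a p that passes it cannot tell a population from a single deviating library.

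Because replicate 2 is present once in every population, its difference enters the comparison of Syndecan-2+ with Syndecan-2- as spread. That comparison called 4205 genes (30%), 2874 higher (20.5%) and 1331 lower (9.51%) in Syndecan-2+, and 4985 (35.6%) with the replicate number as a block, 3434 higher (24.5%) and 1551 lower (11.1%). TMM rescaling split the calls without the block into 2039 and 1925. The median SE of the 14 heat shock genes was 0.46 without the block and 0.09 with it, while over all genes it was 0.14 and 0.12. None of the 14 was called without the block. With it, Dnajb4 (0.51, SE 0.10, limma adjusted p = 0.000314), Dnaja4 (0.53, SE 0.16, adjusted p = 0.0117) and Bag3 (0.35, SE 0.13, adjusted p = 0.0419) were higher in Syndecan-2+, and Hsph1 (-0.29, SE 0.09, adjusted p = 0.0116), Hspa1a (-0.57, SE 0.18, adjusted p = 0.0183), Hsp90ab1 (-0.16, SE 0.06, adjusted p = 0.0348) and Hspa8 (-0.16, SE 0.06, adjusted p = 0.0354) were lower. Hspa1b, whose reads can be split with those of Hspa1a, was not called in that fit. The fit with the block was not repeated under TMM rescaling or with libraries left out.

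Of all 74 genes higher in replicate 2, 7 were higher and 5 lower in Syndecan-2+ without the block and 19 and 17 with it. Of the 60 lower genes 24 were higher and 7 lower without the block and 26 and 10 with it. Nr4a2 was 1.63 higher in Syndecan-2+ (SE 0.19, limma adjusted p = 3.42e-06) and Dusp5 1.16 lower (log2 -1.16, SE 0.14, adjusted p = 3.58e-06) in the fit without the block, so that these genes differed between the sorted fractions by more than between the replicates. With the 3 replicate 2 libraries left out, 3276 genes were called, from 2 libraries of each population.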

How the data were processed

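RNA from sorted marrow cells of C57BL/6J mice was measured in 9 libraries. The authors deposited 1 table of CPM values, counts scaled to library size, for 58094 transcripts of 20635 gene symbols, per the file headers. The submitters' processing notes name STAR, Bowtie2 and build GRCm38, with no role or version. How reads were counted, scaled and filtered is not stated in these notes. The offset of 0.0001 CPM that the table carries for a transcript without reads was subtracted. Transcripts of a gene symbol were added up, and the tests ran on 13997 genes that reached 1 CPM in 3 or more of the 9 libraries.

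The steps between low values are fractions of a read, so no count test was run. log2(CPM + 1) was fitted in limma 3.58.1 (R 4.3.3, lmFit and eBayes with trend), with Benjamini-Hochberg adjustment over all genes and a threshold of 0.05. A fold change on this scale understates the change of low genes. Replicate 2 against replicates 1 and 3 had the population as a block. Replicate 3 against replicate 1 came from a fit with 3 replicate levels and the population, an F-test covered the interaction of population and replicate 2, and Syndecan-2+ against Syndecan-2- was fitted with and without the replicate number. Tables and figures used Python 3.11.15, pandas 2.3.3, numpy 2.4.6 and matplotlib 3.10.9. The fit was tested on simulated data.

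Pairing by replicate number was checked on deviations from the population means. Their correlation was 0.117 to 0.259 in the 9 pairs that share a number, against -0.206 to 0.00483 in the 18 that do not. Deviations within a population sum to 0, so positive values in the first range push the second below 0 on average. The second range is thus no separate support. The number was treated as a pairing because of the first range. Of 36 pairs of libraries, 0 held identical values.

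The libraries and gene lists were chosen with earlier results of these data known. Named genes are the 12 largest rises and 12 largest falls past the threshold whose replicate 2 value lies outside both others in all 3 populations and whose symbol is not a clone or model name, up to 8 called members of each list (2 where none is called), the genes of the interaction test and a set of fixed names. Other genes were named after their values were seen. Alternatives were pseudocounts of 0.1 and 5, no filter, a minimum of 10 CPM, TMM and quantile normalization, other eBayes settings, a threshold of 0.1, transcripts in place of genes, and leaving out libraries. Leaving out single libraries for the pairwise replicate contrasts, all alternatives for list counts, the interaction with replicates 1 and 3 as separate levels and the omission of an Hsph1 transcript were chosen after seeing the data.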

Additional observations from a re-analysis of the deposited data

Results flagged for a closer look

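The interaction of replicate 2 with the population passed the threshold for 3 genes, all immunoglobulin segments (limma F-test with Benjamini-Hochberg adjustment over 13997 genes). Each population had 1 replicate 2 library, so a dependence on the population cannot be told apart from a single deviating library. Igkv14-100 and Iglc1 were listed at 0 in every Syndecan-2- library and so showed no replicate 2 difference there. Igkv14-100 had an adjusted p of 0.0101, with its values given above. Iglc1, a lambda light chain constant gene, had an adjusted p of 0.0193 and stood at 57.4 CPM in Syndecan-2+ and 12.2 CPM in Parent of replicate 2, against 29.0 and 52.5 CPM in Syndecan-2+ and 0.258 and 0 CPM in Parent of replicates 1 and 3, and it was listed at 0 in all Syndecan-2- libraries. Igkv2-137 had an adjusted p of 0.0220 and stood at 0.0971 CPM in Syndecan-2+ and 1.82 CPM in Parent of replicate 2, against 3.70 and 3.57 CPM in Syndecan-2+ and 0 in Parent of replicates 1 and 3. Of 13 B and plasma cell markers tested 0 were called in replicate 2, and their part in these values was not tested.

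In 3 genes of the heat shock and immediate-early lists 1 of the 6 libraries of replicates 1 and 3 stood apart from the other 5, by Dixon's ratio of the gap to the range on the log2(CPM + 1) scale (critical value 0.625 for 6 samples). The ratio was 0.779 for Dnajb9, 0.729 for Fkbp4 and 0.721 for Rhob. Chance would give about 1 such value in 20 groups if the libraries of a group were alike. The 6 libraries come from different populations and replicate numbers, so that rate need not hold here. The 3 were found among 87 values searched, some of them library measures over all 9 libraries (critical value 0.493).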

How the results depend on the processing

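Genes higher or lower in replicate 2 numbered 44 with eBayes without trend (42 higher and 2 lower), 205 at a threshold of 0.1, 59 for single transcripts, 86 without the 3 Parent libraries, 235 with 3 replicate levels (103 higher and 132 lower) and 59 to 152 with 1 library left out. With 1 library left out, 12 to 14 heat shock genes were higher, 4 to 11 immediate-early genes higher and 2 to 12 lower, the last count being 5 under TMM rescaling. The interaction test called 0 genes with a pseudocount of 0.1, at a minimum of 10 CPM and for single transcripts, 18 without a filter, 14 with the replicate block, 10 with robust eBayes and 1 to 5 with 1 library left out. Replicate 2 against replicate 1 called 166 genes, 107 without a filter and 97 to 172 with 1 library left out, with 118 higher and 38 lower under TMM rescaling. Replicate 2 against replicate 3 called 254 genes, and 157 to 266 with 1 library left out. Replicate 3 against replicate 1 called 46 genes without a filter and 40 to 110 with 1 library left out, of which 2 to 6 were lower heat shock genes and 4 to 6 higher glucocorticoid targets, and without a filter 3 heat shock genes were lower. Syndecan-2+ against Syndecan-2- called 2609 genes at a minimum of 10 CPM, 2533 for single transcripts and 3381 to 4221 with 1 library left out. The replicate block gave 4985. The causes of these changes were not tested.

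Over the genes named, 82 of the gene and setting pairs for replicate 2 lost the call, 4 gained it and 1343 kept their side of the threshold, and for replicate 3 against replicate 1 these were 52 lost and 128 kept. The direction turned in 26 pairs of 10 genes for replicate 2, such as Fos (-0.12 to 0.15), Ccr2 (-0.03 to 0.43) and Igkv2-137 (-0.35 to 0.75), and in 0 of the pairs in which either fit called the gene. Genes near 1 CPM, such as Hmox1, Gdf15, Cyr61 and Snora81, are limited by depth, since 3 reads equal 0.146 to 0.194 CPM.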
